A study of Mus musculus with 15 samples.

Results

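C-type lectin receptors are membrane proteins that bind sugar chains on microbes, glycoproteins and damaged cells. The account below follows 10 of their genes, Cd209a, Cd209b, Cd209d, Cd209f, Cd209g, Mgl2, Clec10a, Clec4n, Clec7a and Clec4e, through macrophages of 6 tissue sources in the mouse. The genes were taken by symbol; all 10 stand in the count table of 24084 genes, and all 10 passed the filter on low counts, which left 15288 genes. Total RNA from small inputs was sequenced. The cells were freshly sorted as positive for F4/80 (the Adgre1 product, a macrophage surface protein) and CD45 (the Ptprc product, carried by hematopoietic cells). The mice were C57BL/6J, and no mutant allele or transgene is named. Every library title carries the letters ND, which may name a condition that all groups share and whose meaning is not given in the sources used here; no other treatment is named.

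Nerve-associated macrophages came from sympathetic ganglia (SAM ganglia, 3 libraries) and from sympathetic fibers dissected out of inguinal fat (SAM fibers, 2 libraries). Fat macrophages came from the subcutaneous depot (sATM, 2 libraries) and the visceral depot (vATM, 2 libraries). Spleen macrophages (SpM) and brain microglia had 3 libraries each. The labels call both fat groups anti-inflammatory. Tissues came from 10 mice, of age and sex not given in the sources used here. Whether each library had its own animals is not stated, so p-values reflect only how much libraries vary, and part of that may be technical. Dissociation differed by tissue. Fat, spleen and brain had 30 minutes of collagenase, fibers 30 minutes of hyaluronidase before 15 minutes of collagenase, and ganglia 10 minutes of collagenase before 30 minutes of trypsin. Tissue and dissociation cannot be told apart in this design.

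As background, the CD209 proteins are the mouse relatives of human DC-SIGN and bind mannose- and fucose-rich glycans. Mgl2 and Clec10a encode the macrophage galactose-type lectins CD301b and CD301a, which bind galactose and N-acetylgalactosamine and are widely used as marks of alternatively activated macrophages and of some dermal dendritic cells. Clec4n (Dectin-2) and Clec4e (Mincle) bind fungal and mycobacterial surface glycans or glycolipids and signal through the Fc receptor gamma chain, whereas Clec7a (Dectin-1) binds beta-glucans and carries its own signalling motif. All of the last group feed the kinase Syk and the Card9, Bcl10 and Malt1 complex that activates NF-kB.

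Libraries held 2.55 to 12.5 M counts after the authors' removal of reads from DNA contamination, of which 46.1% to 71.5% fell on 3 genes that collect ribosomal RNA reads. A count of 3 in a library, the lowest level taken as distinguishable from 0, corresponded to 0.249 to 0.897 counts per M counts after TMM scaling (CPM), which covers counting error only. The 2 fiber libraries correlated at r = 0.569 over log2 CPM, below the range of 0.734 to 0.946 for pairs within the other groups. DNA background, read from the uncorrected counts on olfactory receptor genes per M, ranged from 32.9 to 1234 and was highest in SAM fibers 1, at 686 or above in both fiber libraries. Adgre1 and Ptprc were detected in every group, with group means of at least 161 and 174 CPM. The 8 microglial markers summed to 14373 to 15516 CPM in microglia and to at most 1746 CPM elsewhere, and the 7 red pulp macrophage markers to 9330 to 14318 CPM in spleen and to at most 267 CPM elsewhere.

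The members fall into a few genomic clusters that matter for reading their counts (all positions in mm10, of which GRCm38 is the assembly). The 5 Cd209 genes lie within chr8:3743395-4137707, Mgl2 (chr11:70130357-70137542) and Clec10a (chr11:70166623-70170836) are neighbours 29.1 kb apart, and Clec4n (chr6:123229843-123247024) and Clec4e (chr6:123281789-123289871) lie 34.8 kb apart on opposite strands with Clec4d between them. Clec7a is at chr6:129461591-129472779. No other annotated gene overlaps any of the 10.

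Cd209f and Cd209g are near copies placed head to head, 29.0 kb apart, and their upstream sequences are shown because these genes had the same distribution over the groups. RefSeq promoter windows of GRCm38.p6 were found for 8 of the 10 members. The 250 bases before the start sites of Cd209f (chr8:4105765-4106014, minus strand) and Cd209g (chr8:4134486-4134735, plus strand), and those of Cd209d (chr8:3878500-3878749, minus strand) for contrast, read 5′ to 3′ as follows, with capitals marking TGANTCA (the AP-1 motif), TATAAA (the TATA box) and GAGGAA or its reverse complement (the PU.1 core).
Cd209f: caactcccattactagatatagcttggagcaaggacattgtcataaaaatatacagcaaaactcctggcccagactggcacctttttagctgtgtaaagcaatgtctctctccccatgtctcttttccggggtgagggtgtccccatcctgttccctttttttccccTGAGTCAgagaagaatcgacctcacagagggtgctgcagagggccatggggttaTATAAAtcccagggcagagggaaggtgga
Cd209g: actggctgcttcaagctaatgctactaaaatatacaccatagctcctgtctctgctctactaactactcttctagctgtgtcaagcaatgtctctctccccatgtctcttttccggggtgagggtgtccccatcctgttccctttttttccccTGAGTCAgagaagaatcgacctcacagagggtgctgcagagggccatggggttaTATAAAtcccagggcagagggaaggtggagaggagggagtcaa
Cd209d: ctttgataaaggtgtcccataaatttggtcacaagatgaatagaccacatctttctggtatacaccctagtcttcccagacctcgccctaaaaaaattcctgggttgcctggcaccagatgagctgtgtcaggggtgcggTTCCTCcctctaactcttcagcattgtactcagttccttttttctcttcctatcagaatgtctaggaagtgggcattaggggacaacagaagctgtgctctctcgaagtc

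The windows of Cd209f and Cd209g, extended 50 bases past the start site, were 93.1% identical over 260 aligned bases. TGANTCA began at -83 in Cd209f and at -97 in Cd209g, and TATAAA at -29 and -43. Neither of these motifs was found in the Cd209d window, whose GAGGAA match began at -110. Among 32851 promoter windows of the same length, 7.81% hold TGANTCA, 13.6% TATAAA and 28.3% GAGGAA on either strand. The C/EBP motif TTGCNNAA (in 10.8%), a STAT motif (TTC and GAA with 4 bases between, in 6.95%) and an NF-kB motif (GGG and CC with 5 bases between, in 50.8%) were also searched on both strands. The NF-kB motif matched at -115 in Cd209f and -129 in Cd209g, and at -112 in Cd209d, where it overlaps GAGGAA. A match describes the letters and is not evidence that a factor binds.

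The transcripts of Cd209f and Cd209g were 90.2% identical over 1179 aligned bases, and 38.2% of the 50-base windows of Cd209f and 38.7% of those of Cd209g occur in both genes. Mgl2 and Clec10a were 84.7% identical over 1158 bases and 15.7% of the windows of Mgl2 and 16.7% of those of Clec10a occur in both. A further small number of Mgl2 windows occur in other genes, such as H2-Q6 (1.24%) and Efr3a (1.17%). Reads from shared stretches could have been assigned to either copy, so the split within each of these pairs is uncertain. The longest stretch shared by the coding sequences of Mgl2 and Clec10a is 183 bases long and runs over exons 7 to 9 of both genes (chr11:70136337-70136699 in Mgl2 and chr11:70169822-70170189 in Clec10a, introns left out). It is printed, 5′ to 3′, because the ratio of this pair differed between tissues in the values below.
Mgl2 and Clec10a: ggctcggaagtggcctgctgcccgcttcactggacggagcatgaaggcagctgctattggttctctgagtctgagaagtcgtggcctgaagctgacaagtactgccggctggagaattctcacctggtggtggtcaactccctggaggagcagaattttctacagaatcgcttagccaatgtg

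In the transcript models searched, no 50-base window of Cd209a, Cd209b, Cd209d, Clec7a or Clec4e occurs in the transcript of another gene. Of those of Clec4n, 0.932% do. The counts of Cd209a, Cd209d, Clec4n and Clec4e are therefore little exposed to such sharing. For Cd209b and Clec7a the models searched were 1000 and 707 bases long, against 1948 and 2137 bases for the counted transcripts. Part of each was thus not searched, and sharing there was not tested.

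Every member varied among the 6 sources. In edgeR's quasi-likelihood F-test for any difference among the groups, 10 of 10 members passed at a Benjamini-Hochberg adjusted p below 0.05, against 22.2% of all tested genes, with adjusted p from 4.85e-08 for Clec4n to 8.71e-05 for Clec7a. Summed over the 10 genes, lectin transcripts were abundant in nerve-associated and fat macrophages, and in spleen they were almost wholly Clec4n. In microglia most were near the lowest detectable level. Several members were also low in nerve groups: Cd209d, Cd209f and Cd209g stayed at or below 4.16 CPM in every ganglion and fiber library. Cd209b was at 0 in fibers, and Clec4e was at or below 5.62 CPM in ganglia. In sorted bulk samples, fewer cells of a type and less RNA per cell cannot be told apart. The plot of levels by library shows these distributions for each gene.

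**Figure D1:**
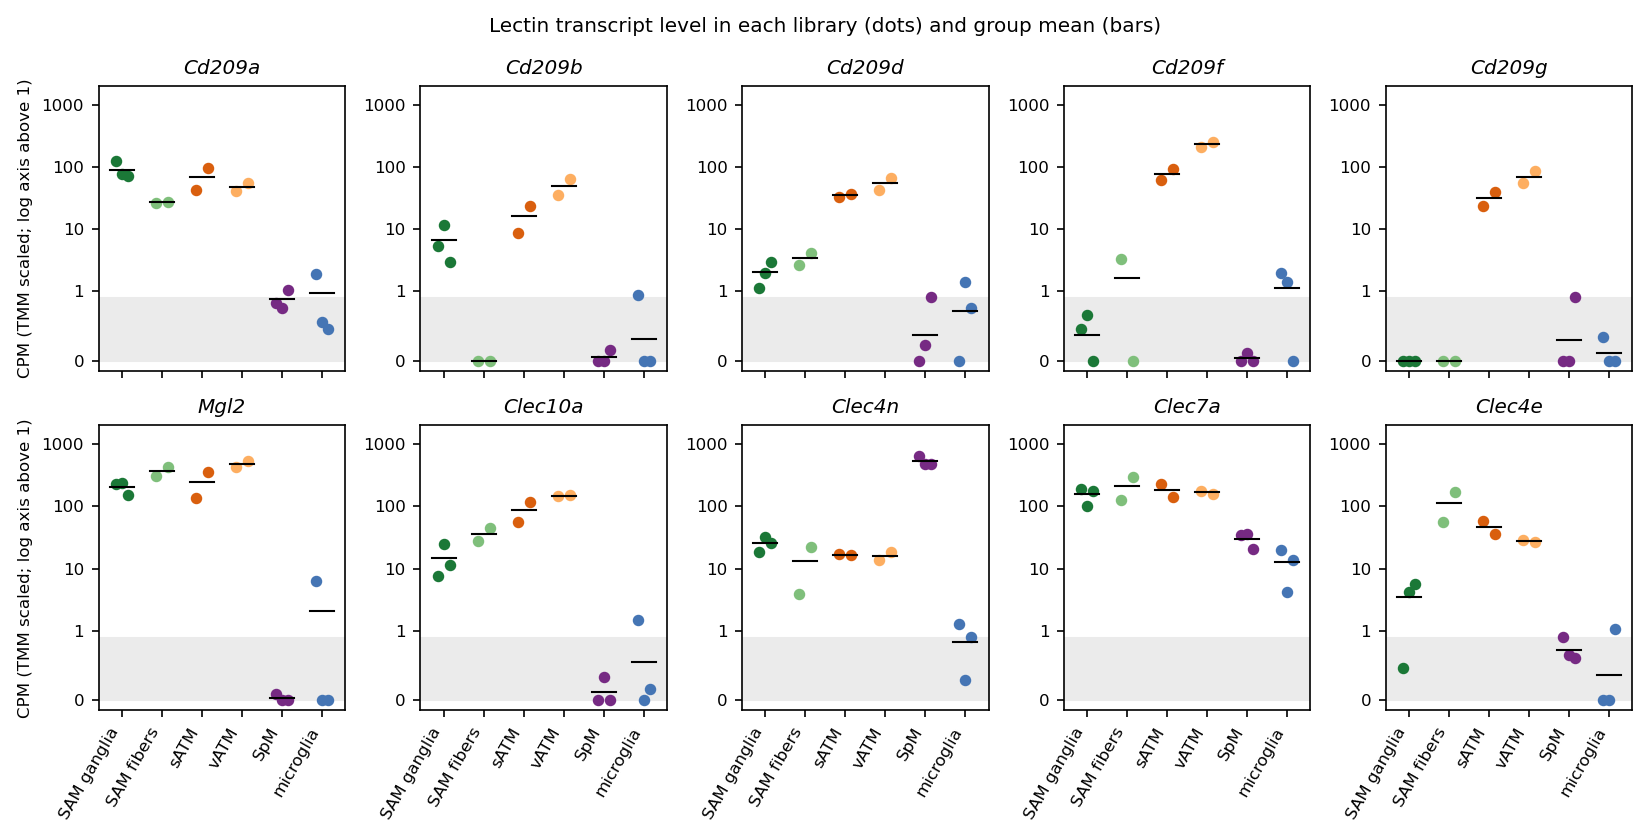
CPM of each lectin gene in each of the 15 libraries (dots, by group) with the group mean (bars), on an axis that is linear below 1 CPM and logarithmic above; the shaded zone is below 0.9 CPM and marks where 3 counts fall in a library. Clec4n stands highest in the 3 spleen libraries, at 471 to 648 CPM, whereas Cd209f and Cd209g exceed 20 CPM in the 4 fat libraries alone.

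Gene by gene, most of the lectins were higher in the mean of the nerve-associated and fat groups than in the mean of spleen macrophages and microglia. The summed level did not follow: in spleen it was 453 to 588 RPKM over the 10 genes, nearly all Clec4n, which lay within the range of the nerve and fat libraries, 243 to 892 RPKM. Group means on the log scale had equal weight. By edgeR, 7 of 10 members were called higher and none lower (adjusted p below 0.05 and a change of 1 or more on the log2 scale), against 14.3% of all genes called in either direction, 7.40% higher and 6.89% lower. The 7 were Mgl2 (log2 fold change 9.69 ± 0.79 SE), Clec10a (7.38 ± 0.60), Cd209a (5.74 ± 0.35), Clec4e (5.67 ± 0.61), Cd209f (5.33 ± 0.80), Cd209d (4.61 ± 0.64) and Clec7a (3.16 ± 0.33), with adjusted p between 1.58e-08 for Cd209a and 1.56e-04 for Cd209f. In 4 of them, Mgl2, Clec10a, Cd209a and Clec7a, every nerve and fat library lay above every spleen and microglia library. A call here does not mean that each nerve group was higher. By edgeR against microglia alone, Cd209f was called in neither ganglia nor fibers (-1.51 and 0.31, adjusted p = 0.590 and 0.868). Nor was Cd209d (1.83 and 2.57, adjusted p = 0.361 and 0.0982), and Clec4e was not called in ganglia (3.28, adjusted p = 0.0506). In the pooled comparison Clec4n did not pass (-0.38 ± 0.34, adjusted p = 0.557), with spleen above and microglia below the nerve and fat groups. Cd209b and Cd209g were listed at 0 in at least 1 nerve group and did not pass. The members' median was 4.97, or 5.50 with the groups at 0 set to 3 counts over the group, against -0.13 over all genes tested. Without SAM fibers 1, Cd209f is at 0 in the remaining fiber library and its call was lost (log2 3.76, adjusted p = 1).

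Within the nerve and fat sources the lectins split further. Fat macrophages exceeded ganglion macrophages for 5 of 10 members, with none lower, against 3.58% of all genes in either direction, 1.16% higher and 2.41% lower. The 5 were Cd209f, Cd209g, Cd209d, Clec10a and Clec4e, and in each of them all 4 fat libraries lay above all 3 ganglion libraries. Cd209g passed the low-count filter through the fat libraries alone. Its call was therefore partly set by that filter and is not separate evidence within the 5. The members' median difference was 2.51, against -0.14 over all genes. On the uncorrected gene-body counts 2 of the 10 passed, where 0.0184% of all genes did.

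Fiber macrophages lie within subcutaneous fat, and their sorted samples were compared with sATM from the surrounding tissue. The 2 also differed in transcripts of other cells. Marker sums averaged 462 CPM in fibers against 35.0 CPM in sATM for sympathetic neurons. They were 203 against 10.5 CPM for Schwann cells and satellite glia and 207 against 23.1 CPM for fibroblasts. The sums of macrophage, monocyte, dendritic, and T and NK cell markers were lower in fibers. The part of these cells in the differences was not tested. Cd209f, Cd209g and Cd209b were lower in fibers and no member was higher, 3 of 10 against 4.84% of all genes in either direction, 1.85% higher and 2.99% lower. Of these 3, Cd209g passed the low-count filter through the fat libraries alone, so its call is not separate evidence. The median difference was -1.31, against 0 over all genes. The count was 0 with limma voom, which called 0.713% of all genes, and 0 on the uncorrected gene-body counts, where 0 of 21711 genes passed. It was 5 without SAM fibers 2, where the share over all genes also went up, to 16.9%.

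Ganglion and fiber macrophages, both nerve-associated, differed in 3 of 10 members, against 4.11% of all genes in either direction. Cd209a and Cd209b were called higher in ganglia (2.85% of all genes were) and Clec4e was called higher in fibers (1.27% of all genes were lower in ganglia). Of 25 alternative settings, the Cd209a call was lost in 17, the Cd209b call in 4 and the Clec4e call in 1. A fiber level of Cd209b as low as that in ganglia could not be told from DNA background. The median was -0.59, or -0.78 with groups at 0 set to 3 counts, against 0.00 over all genes. The count was 1 with voom (0.739% of all genes called), 1 without SAM ganglia 2 (2.30%) and 1 without SAM fibers 1 (2.63%). It was 0 on the uncorrected counts, where 0 of 21711 genes passed, and 4 without SAM fibers 2, where 15.6% did.

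Spleen macrophages and microglia differed in 2 of 10 members, against 11.1% of all genes: Clec4n was higher in spleen (5.80% of genes were) and Mgl2 was lower (5.31% were). The members' median was -0.57, against -0.21 over all genes. The Mgl2 call rested on microglia 1 and is described with that gene. Subcutaneous and visceral fat macrophages differed in 0 of 10 members with edgeR, against 0.0392% of all genes (0.0196% higher and 0.0196% lower), and 0 members had an unadjusted p below 0.05. DESeq2 also called 0, and voom called 1, Cd209f, lower in sATM (-1.50, adjusted p = 0.0286). In simulated counts of genes with a mean of at least 10 CPM, edgeR recovered 39% of 4-fold changes between these depots. A difference of that size could thus be missed. The map of fold changes gives all 6 comparisons side by side; several of them share libraries, so its columns are not independent.

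**Figure D2:**
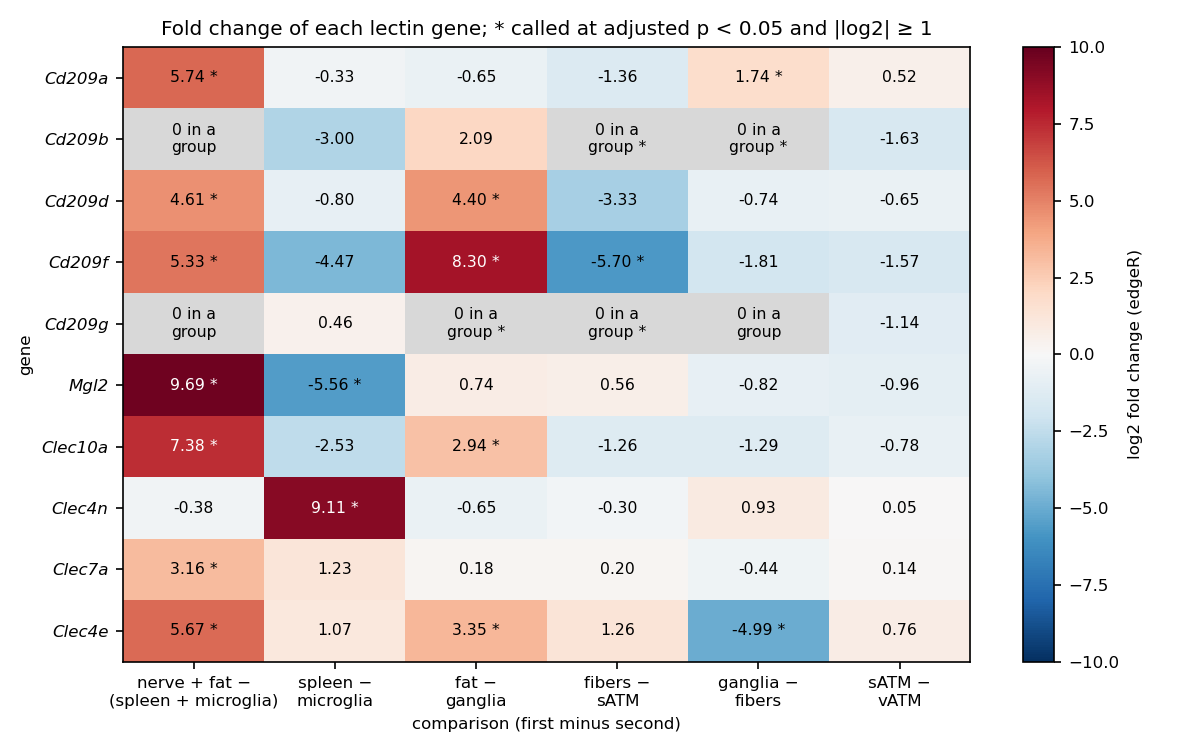
Log2 fold change (edgeR, first side minus second; colour and number) of each lectin gene (rows) in 6 comparisons (columns); an asterisk marks a called gene, and grey cells hold a group listed at 0, for which no fold change is given. The first column holds 7 calls, all higher, and the last holds 0.

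Cd209f and Cd209g, the near copies, were transcripts of fat macrophages. Cd209f stood at 62.1 and 92.8 CPM in sATM and at 207 and 254 CPM in vATM. It was 0.462, 0.664 and 0 CPM in ganglia, 3.29 and 0 CPM in fibers, at most 0.109 CPM in spleen and at most 1.99 CPM in microglia. All 4 fat libraries lay above all 11 others. Its fat against ganglia difference was 8.30 ± 0.97 on the log2 scale (edgeR, adjusted p = 1.06e-04), and fibers were below sATM by a log2 difference of -5.70 ± 1.05 (adjusted p = 0.00660). The second call was lost with voom and on the uncorrected counts. Uncorrected counts of Cd209f in fibers were 0.684 and 0.918 times what the olfactory receptor density would give, against 241 and 151 times in sATM. The fiber level could thus not be told from DNA background, and the size of that difference is uncertain.

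Cd209g followed at lower counts. Its levels were 23.9 and 39.3 CPM in sATM, 54.5 and 85.7 CPM in vATM, 0 in all 5 nerve libraries, and at most 0.913 CPM in spleen and 0.346 CPM in microglia. The 2 fat groups and the other 4 groups did not overlap. Cd209g was called higher in fat than in ganglia (edgeR, adjusted p = 6.14e-04) and lower in fibers than in sATM (adjusted p = 0.00786), the second a call not kept by DESeq2 (adjusted p = 0.0772). No fold change is given, since 1 side of each was at 0 after background removal.

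Background removal by the authors can leave a gene at 0. For Cd209g in fibers the uncorrected gene-body counts were 41 and 11, where the olfactory receptor density in those libraries would give 54.1 and 16.3 over a gene of that span. In sATM the uncorrected counts were 138 and 573 against 1.36 and 9.09 at that density. The fiber signal was thus at the DNA background and the fat signal far above it. In ganglia the uncorrected counts were 6, 5 and 15 against 0.712, 3.84 and 22.3, so that SAM ganglia 1, listed at 0 after correction, stood at 8.43 times that density on few counts.

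Per length, the authors' RPKM put Cd209f above Cd209g in every fat library, by ratios of 2.54 and 2.31 in sATM and 3.72 and 2.90 in vATM, with the caveat on shared reads given above. In the log2(CPM + 1) values the pair had r = 0.971 over the 15 libraries, the highest of all member pairs. The order of groups for Cd209f was vATM, sATM, SAM fibers, microglia, SAM ganglia and spleen. Only the step from sATM to SAM fibers was called between neighbours in that order.

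Cd209d, which lies in the same cluster with no shared windows, was also highest in fat. It was 33.1 and 36.8 CPM in sATM and 42.4 and 67.2 CPM in vATM, against 1.15, 1.99 and 3.01 CPM in ganglia and 2.69 and 4.16 CPM in fibers. Spleen reached 0.913 CPM and microglia 1.40 CPM. All 4 fat libraries lay above all 11 others. Fat exceeded ganglia by 4.40 ± 0.81 (adjusted p = 0.00479), whereas the difference of fibers from sATM, -3.33 ± 0.97, missed the threshold (adjusted p = 0.0625).

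Cd209a, the family member most often used to mark monocyte-derived dendritic cells, was distributed otherwise. It was highest in ganglia, at 124, 77.2 and 72.4 CPM, and stood at 26.6 and 27.7 CPM in fibers, 43.0 and 95.6 CPM in sATM and 41.2 and 55.8 CPM in vATM. Spleen held 0.766 to 1.07 CPM and microglia 0.456 to 1.90 CPM. The 9 nerve and fat libraries all lay above the 6 others, while ganglia and sATM overlapped. Ganglia exceeded fibers by 1.74 ± 0.47, at an adjusted p of 0.0472, and the call was lost in 17 of 25 alternative settings. The 11 other dendritic cell markers summed to 142 to 173 CPM in ganglia, 131 to 176 CPM in fibers, 216 to 433 CPM in fat, 131 to 161 CPM in spleen and 33.7 to 46.6 CPM in microglia. Xcr1 was at 0 in fibers and Clec9a at 0 in sATM. The part of such cells in the Cd209a level was not tested.

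Cd209b, whose protein marks marginal zone macrophages of the spleen in textbook accounts, was nearly absent from these spleen libraries, at 0, 0 and 0.152 CPM. It was highest in vATM (36.0 and 64.6 CPM), followed by sATM (8.66 and 23.6 CPM) and ganglia (5.31, 11.6 and 3.01 CPM). Fibers were at 0 in both libraries, and microglia at 0.952, 0 and 0 CPM. The 3 other marginal zone markers summed to 251 to 326 CPM in spleen and to at most 126 CPM elsewhere, but they did not run together. Nr1h3, at a mean of 218 CPM in spleen, made up most of that sum, Marco had a mean of 33.5 CPM there, and the mean of Siglec1 was 46.3 CPM in spleen against 90.1 CPM in ganglia, 59.6 CPM in sATM and 64.8 CPM in vATM.

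Cd209b was called higher in sATM and in ganglia than in fibers (edgeR, adjusted p = 0.00980 and 0.0235), with no fold change given against the fiber group at 0. The first call was lost without sATM 2 (adjusted p = 0.0502) and the second without SAM ganglia 2 (0.0696) or SAM fibers 1 (0.0679). The uncorrected fiber counts of 198 and 83 were 1.18 and 1.64 times the 167 and 50.5 that the olfactory receptor density would give. A level of Cd209b in fibers as low as that in ganglia could therefore not be told from this background. On the uncorrected counts the ganglia against fibers difference was 1.31 (adjusted p = 0.704).

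Since the nerve groups hold zeros, Cd209b and Cd209g were also read against microglia for each fat group alone. In sATM Cd209b exceeded microglia by 5.20 ± 0.98 (edgeR, adjusted p = 0.00199) and Cd209g by 7.40 ± 1.11 (5.49e-04). In vATM the differences were 6.83 ± 1.02 (2.93e-04) and 8.54 ± 1.13 (2.05e-04). All 10 members were called higher than in microglia in both fat groups, against 7.06% and 6.82% of all genes. Cd209g had at most 6 counts in any library outside fat, so it passed the low-count filter through the fat libraries alone. Its calls in fat against other groups were therefore partly set by that filter and are not separate evidence.

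Among the 5 Cd209 genes, the one with the largest share of summed RPKM changed with the source. Cd209a made up 85.9% to 94.9% of the sum in ganglia and 74.6% to 79.5% in fibers. In sATM it held 19.3% to 26.9% against 35.1% to 37.5% for Cd209f, and in vATM Cd209f held 50.3% to 56.4% and Cd209a 8.23% to 8.34%. The sum itself was 49.0 to 74.3 RPKM in ganglia, 19.8 to 26.1 in fibers, 133 to 247 in sATM, 222 to 410 in vATM and at most 4.51 in spleen and microglia. The shift between these sources was noticed in the values and is given as a description.

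Mgl2 was the most abundant lectin per length in ganglia, fibers, sATM 2 and vATM. It stood at 232, 233 and 152 CPM in ganglia, 304 and 420 CPM in fibers, 136 and 356 CPM in sATM and 429 and 526 CPM in vATM. Spleen held 0.0832, 0 and 0 CPM. Microglia 1 held 6.23 CPM and the other microglia libraries 0. The 9 nerve and fat libraries lay above all 6 others. Among them both vATM libraries were the highest and both fiber libraries lay above the ganglia, while sATM overlapped with fibers and with ganglia, and no step between neighbours among the 4 nerve and fat groups was called.

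The call of Mgl2 as lower in spleen than in microglia (-5.56 ± 1.47, adjusted p = 0.0191) compared 1 count over the 3 spleen libraries with 72 counts, all in microglia 1. The ratio of those sums was 92.0, with an exact 95% interval of 16.0 to 3686 that covers counting error only. Without microglia 1 the direction turned (1.53, adjusted p = 0.742). The same library also held the highest microglial CPM of Cd209a, Cd209b, Cd209f, Cd209g, Clec10a, Clec4n and Clec7a. Its DNA background was the lowest of the microglia libraries, at 33.1 olfactory receptor counts per M.

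Clec10a, the neighbour and partial copy, was 7.62, 24.6 and 11.4 CPM in ganglia, 27.2 and 44.4 CPM in fibers, 56.8 and 115 CPM in sATM and 144 and 151 CPM in vATM. Spleen reached 0.328 CPM and microglia 1.47 CPM. The nerve and fat libraries did not overlap, nor did fibers and ganglia. Fat exceeded ganglia by 2.94 ± 0.60 (adjusted p = 0.00942), while Mgl2 gave 0.74 ± 0.66 (adjusted p = 0.685) in the same comparison; the difference between the genes was not tested. The Clec10a call was narrowly lost without SAM ganglia 1 (adjusted p = 0.0564), SAM ganglia 3 (0.0597) or sATM 2 (0.0523).

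By RPKM, Mgl2 exceeded Clec10a by ratios of 29.4, 9.16 and 12.9 in ganglia and 10.8 and 9.16 in fibers, against 2.31 and 2.99 in sATM and 2.88 and 3.37 in vATM. The 5 nerve libraries all lay above the 4 fat libraries. This ratio was singled out after the values were seen, so it has no test, and reads from the shared stretch printed above could pull the values of both genes together. Across all 15 libraries the genes had r = 0.939, which mainly separates the 9 nerve and fat libraries from the 6 others.

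**Figure D3:**
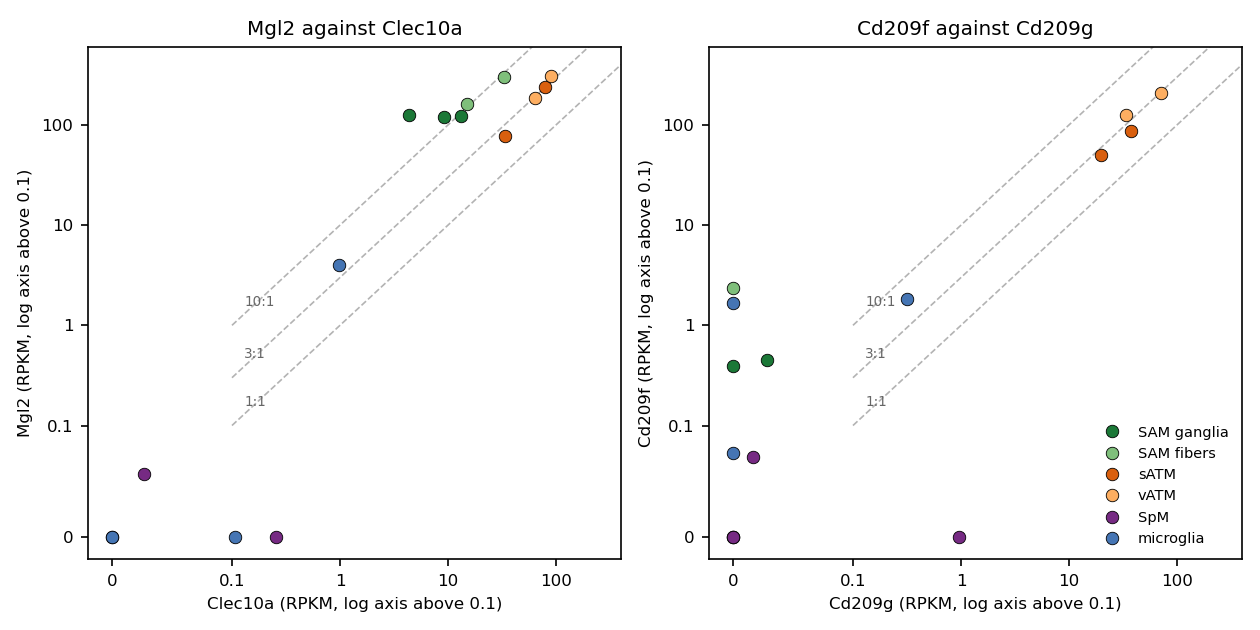
RPKM of Mgl2 against Clec10a (left) and of Cd209f against Cd209g (right) in the 15 libraries, coloured by group, on axes that are linear below 0.1 and logarithmic above, with dashed lines at ratios of 1, 3 and 10. Fat libraries lie near the line of 3 in both panels, and nerve libraries lie near or above the line of 10 on the left.

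Clec4n was highest in spleen. Spleen macrophages held 648, 479 and 471 CPM. Ganglia held 18.2, 32.3 and 26.1 CPM, fibers 3.89 and 22.5 CPM, sATM 16.8 and 16.3 CPM, vATM 13.8 and 18.3 CPM, and microglia 1.30, 0.281 and 0.912 CPM. The spleen libraries lay above and the microglia libraries below all others. Spleen exceeded microglia by 9.11 ± 0.63 (adjusted p = 9.64e-08), a call kept in all 25 alternative settings with values of 7.02 to 9.66. In the order of group means, spleen, ganglia, sATM, vATM, fibers and microglia, the first and the last steps were called and the 3 between were not.

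Clec4n correlated with the other 9 members at r between -0.21 and 0.14, whereas the other 36 pairs had r between 0.41 and 0.97. These coefficients are over the same 15 libraries and describe the groups more than variation within them.

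Clec7a was detected in every library. It stood at 190, 101 and 173 CPM in ganglia, 128 and 292 CPM in fibers, 227 and 140 CPM in sATM, 178 and 156 CPM in vATM, 20.5 to 36.2 CPM in spleen and 4.21 to 19.9 CPM in microglia. All 9 nerve and fat libraries lay above the spleen libraries, which lay above the microglia libraries. The last step was not called (1.23 ± 0.46, adjusted p = 0.114), nor was any difference among the 4 nerve and fat groups. It was the only member above 3 counts in every library.

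Clec4e, in contrast, separated the 2 nerve groups. Fibers held 55.0 and 169 CPM, sATM 57.8 and 36.2 CPM, vATM 28.5 and 26.8 CPM, and ganglia 0.462, 4.25 and 5.62 CPM. Spleen stayed at or below 0.915 CPM and microglia at or below 1.06 CPM. Ganglia were lower than fibers by a log2 difference of -4.99 ± 0.80 (adjusted p = 0.00265), with no overlap. The call was kept in 24 of 25 settings, the exception being the uncorrected gene-body counts (-2.32, adjusted p = 0.394). Fat exceeded ganglia by 3.35 ± 0.71 (adjusted p = 0.0123), a call lost without SAM ganglia 2 (3.53, adjusted p = 0.0610).

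Markers of infiltrating myeloid cells ran beside several of these differences. The 9 monocyte markers summed to 2879 to 3853 CPM in fat, 583 to 949 CPM in ganglia, 812 to 963 CPM in fibers, 30.0 to 54.7 CPM in spleen and 21.3 to 76.2 CPM in microglia. The 8 neutrophil markers summed to 218 to 234 CPM in fibers and 20.8 to 97.9 CPM in ganglia. Their sum was 96.1 to 125 CPM in sATM, 125 to 132 CPM in vATM, 33.8 to 45.6 CPM in spleen and 102 to 125 CPM in microglia. Microglia thus overlapped with sATM in this sum. No monocyte marker was at 0 in all libraries of any group, and Cxcr2 was at 0 in ganglia. The part of these cells in the levels of Cd209d, Cd209f, Cd209g, Clec10a and Clec4e was not tested.

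The makeup of the 10 lectins is given as a description, without a test. They summed to 243 to 318 RPKM in ganglia, 264 and 601 in fibers, 367 and 658 in sATM, 540 and 892 in vATM, 453 to 588 in spleen and 7.77 to 18.7 in microglia. Microglia alone did not overlap with any other source in this sum. Clec4n took 95.9% to 97.2% of the sum in spleen. Mgl2 took 43.8% on average in ganglia, followed by Clec7a (22.9%) and Cd209a (20.1%), and 55.9% in fibers, followed by Clec7a (20.6%) and Clec4e (9.61%).

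In vATM Mgl2 held 34.3%, Cd209f 23.2% and Clec10a 11.1%, and in sATM Mgl2 held 28.7%, Clec7a 17.1% and Cd209f 13.4%. In microglia Clec7a held 49.7% of a small sum, with a range of 33.7% to 69.1%. RPKM compares genes per length, and for Cd209b, Clec4n and Clec7a the RPKM table used another transcript model than the count table, so their shares depend on that choice.

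**Figure D4:**
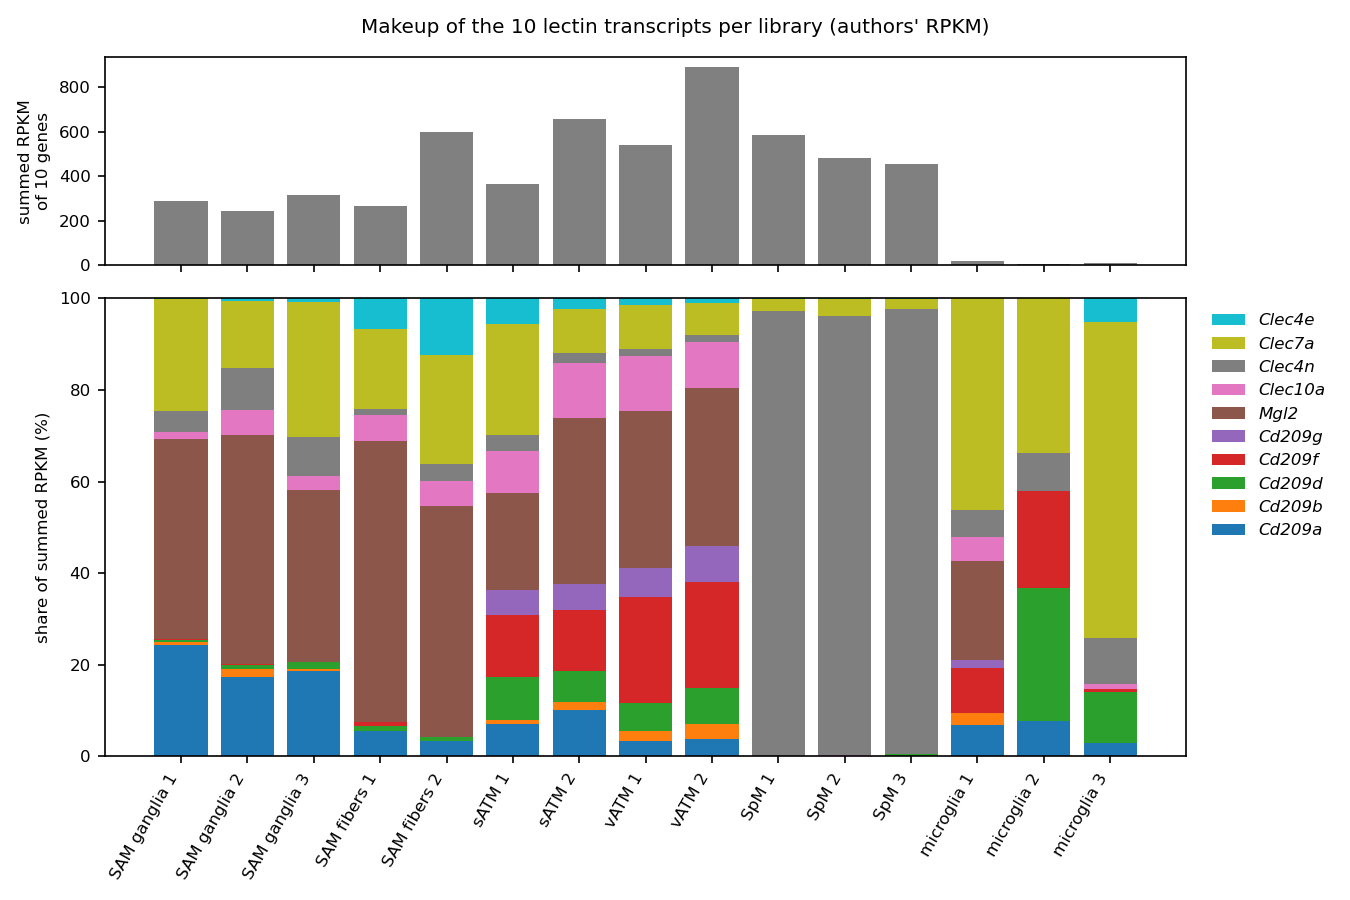
Summed RPKM of the 10 lectin genes (top) and the share of each gene in that sum in percent (bottom) for each library, from the authors' RPKM table. Spleen bars are nearly all Clec4n, nerve bars are led by Mgl2, and the microglia shares rest on sums of at most 18.7 RPKM.

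The genes whose levels most resembled each member were sought among 8068 others with a group mean of at least 10 CPM, by Pearson r of log2(CPM + 1) over the 15 libraries. Mgl2 was closest to Sh3pxd2b (r = 0.990), Cd36 (0.980) and Sema4a (0.979), and Cd209a to Sema4a (0.966), Rgs18 (0.964) and Sh3pxd2b (0.961). Clec10a was closest to S100a11 (0.982), S100a4 (0.978) and Anxa1 (0.973). Cd209f and Cd209g shared Mamdc2 (0.955 and 0.967) and Rem1 (0.938 and 0.943), with Ednrb (0.942) added for the first and Aqp9 (0.944) for the second. Rem1 (0.960) also led for Cd209d, before Aldh1a2 (0.949) and Lyz1 (0.945).

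Clec4n was closest to Hmox1 (0.984), the heme oxygenase gene that was 509 CPM in spleen and at most 34.7 CPM elsewhere, and to Slc8b1 (0.983) and Il18bp (0.968). Clec7a was closest to Pim1 (0.948), Emilin2 (0.948) and Msr1 (0.945), Clec4e to Srgn (0.952), Plaur (0.937) and Rpl34-ps1 (0.931), and Cd209b to H13, Ndnf and Coro1c (each 0.938). These are similarities over 6 sources, and the points share library and depth.

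Of 27 other C-type lectin receptor genes of myeloid cells in the table, 20 were tested. In nerve and fat against spleen and microglia 11 were higher and 1 was lower (7.40% and 6.89% of all genes), with a median of 1.99 against -0.13 over all genes. Cd93 (5.07 ± 0.55), Clec12a (2.72 ± 0.30) and Clec4a1 (1.72 ± 0.19) led the first, and Clec1b, a receptor for podoplanin at 55.5 CPM in spleen, was the lower one. A call here does not mean a level above spleen. Clec12a had means of 203 CPM in spleen, 88.0 to 158 CPM in the nerve and fat groups and 1.34 CPM in microglia. For Clec4a1 these were 213, 108 to 217 and 9.03 CPM. Cd93 was low in both spleen (2.79 CPM) and microglia (6.04 CPM). In spleen against microglia 12 were higher and 1 lower (5.80% and 5.31% of all genes), with a median of 1.74 against -0.21. The members called there numbered 2, in opposite directions. Among the 12, Clec12a (6.99 ± 0.53), Clec4a1 (4.58 ± 0.32) and the mannose receptor gene Mrc1 (5.17 ± 0.58) had means of 203, 213 and 895 CPM in spleen.

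In fat against ganglia 2 of the 20 were higher and 1 lower, against 1.16% and 2.41% of all genes. Fat exceeded ganglia in Clec4a3 (1.08 ± 0.25) and Clec4b1 (1.98 ± 0.50), and was lower in Clec5a (-2.23 ± 0.52), which signals through Tyrobp. In fibers against sATM 1 was higher and 1 lower (1.85% and 2.99% of all genes): fibers were lower in Clec4a3 (-1.33 ± 0.33) and were called higher in Clec1b, which is listed at 0 in sATM. No gene of the list was called between ganglia and fibers or between the fat depots. Of the remaining Cd209 family genes, Cd209c and Cd209e were tested and stayed at or below group means of 5.29 and 3.16 CPM, both highest in vATM. Cd209c was called higher in nerve and fat than in spleen and microglia (adjusted p = 0.0180), with spleen at 0.

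**Figure D5:**
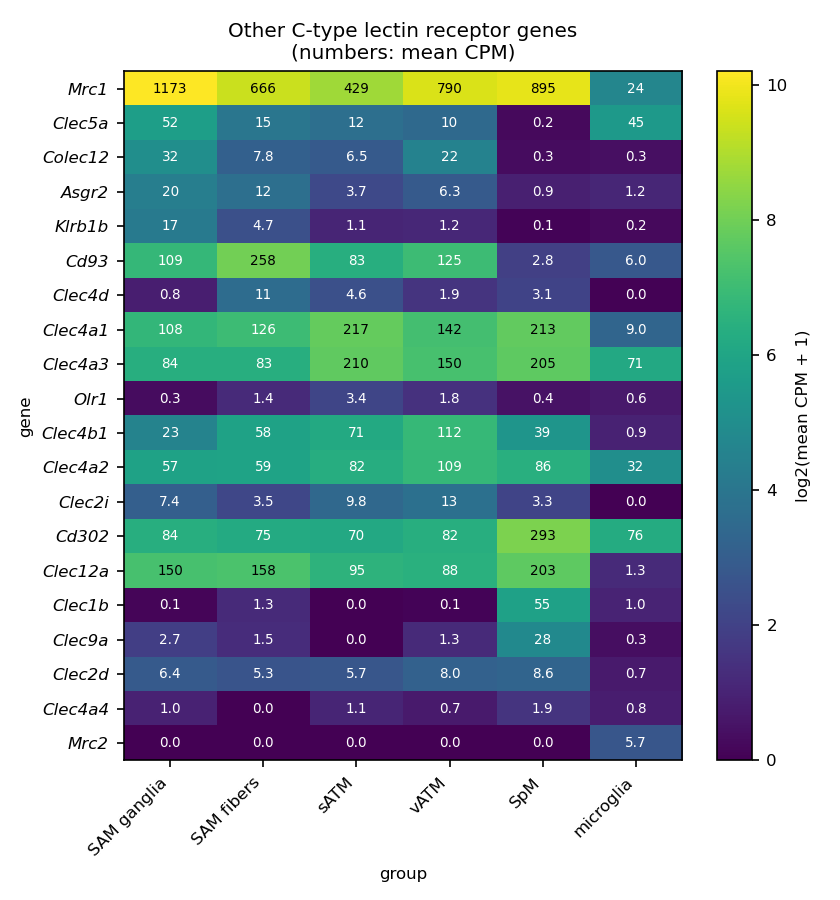
Group mean CPM (numbers) of the 20 other C-type lectin receptor genes tested, coloured by log2(mean CPM + 1), by group. Mrc1 is the highest in every group except microglia, Clec1b and Clec9a stand out in spleen, and Cd93 is at 2.8 and 6.0 CPM in spleen and microglia against 83 CPM or more in nerve and fat.

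Of 24 signalling genes, all tested, 2 were higher and 4 lower in nerve and fat against spleen and microglia, with a median of -0.05 against -0.13 over all genes. Over all genes 7.40% were higher and 6.89% lower, so the higher count is near the background. Fcer1g, the gamma chain through which Clec4n and Clec4e signal, had group means of 634 to 1032 CPM, and Syk of 113 to 267 CPM. The adaptor Card9 was low throughout, with group means from 0.438 CPM in spleen, where Clec4n was highest, to 7.06 CPM in microglia. Vav3, a guanine nucleotide exchange factor, was higher in nerve and fat (2.44 ± 0.24), in spleen against microglia (5.03 ± 0.40) and in fat against ganglia (1.60 ± 0.30). Src was lower in the pooled nerve and fat comparison (-2.48 ± 0.33), in fat against ganglia (-3.46 ± 0.50), and higher in ganglia against fibers (2.67 ± 0.64). Its ganglion mean of 12.8 CPM was above that of spleen (8.99 CPM) and below that of microglia (20.5 CPM). Fibers, sATM and vATM had means of 0.982 to 1.95 CPM.

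In fibers against sATM, where Cd209b, Cd209f and Cd209g were called lower, 4 of the 24 signalling genes were lower and none higher (2.99% and 1.85% of all genes). They were Nfkb1 (-1.55 ± 0.37, adjusted p = 0.0261), Prkcd (-1.33 ± 0.32, 0.0284), Ptpn6 (-1.33 ± 0.32, 0.0288) and 1 more. The NF-kB subunit gene Relb was higher in fibers than in ganglia (ganglia minus fibers -1.81 ± 0.45, adjusted p = 0.0324), while Nfkb1 was lower (1.56 ± 0.35, 0.0185). The list's median was -0.48 in fibers against sATM and 0.47 in ganglia against fibers.

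Of 15 genes of resident and perivascular macrophages, 11 were higher and 3 lower in nerve and fat against spleen and microglia (7.40% and 6.89% of all genes), led by F13a1 (7.58 ± 0.42), Pf4 (6.72 ± 0.45) and Cbr2 (5.58 ± 0.41). Fat exceeded ganglia in Fcna (4.57 ± 0.61), Retnla (5.86 ± 0.80) and Lyve1 (2.81 ± 0.68), in the direction of Cd209d, Cd209f and Cd209g, and was lower in Stab1 (-2.28 ± 0.40). Fcna (-4.49 ± 0.87) and Retnla (-4.79 ± 0.94) were also lower in fibers than in sATM. Unlike the Cd209 genes, Fcna had a mean of 999 CPM in spleen.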

How the data were processed

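The values come from 3 tables that each span all libraries. Per the submitters' processing notes, STAR, HOMER and the mm10 build were used, with versions, settings and strand use not given in the sources used here. The authors deposited estimated counts per gene after removing reads of DNA contamination (45.3% of values whole to within 1e-09), uncorrected counts over gene bodies, and RPKM values (reads per kilobase of transcript and M mapped reads). The corrected counts were rounded for edgeR 4.0.16 (R 4.3.3): filterByExpr with a minimum count of 10, TMM scaling, 1 mean per group over all 15 libraries, a quasi-likelihood F-test and Benjamini-Hochberg adjustment over 15288 genes. Calls need an adjusted p below 0.05 and a change of 1 or more on the log2 scale. Levels are CPM. The SE of a fold change was back-calculated as its size divided by the square root of the F statistic. It therefore restates the p-value of that test and is not a separate measure of spread. RPKM served to compare genes within a library. The test was checked on simulated counts with 100 genes changed 4-fold and 100 changed 12-fold. The changed genes had a mean of at least 10 CPM, and each gene had the same spread in every group. Recovery at lower levels, or with the lower agreement of the fiber libraries, was not simulated. Of the 4-fold changes edgeR recovered 39% in fibers against subcutaneous fat, 39% between the fat depots and 50% in ganglia against fibers. Recovery was 71% to 89% in the other comparisons, and 89% to 100% for 12-fold changes.

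Alternatives used DESeq2 1.42.0, limma 3.58.1 (voom, or log2 of RPKM plus 0.1 or 1), other scaling and filters, the uncorrected table, a replicate block, and each library left out. The members, gene lists and tests were chosen with earlier results of these data known. All members are named; up to 3 called genes of a list, smallest p first, are named in a comparison, except that some genes given for their levels (Fcer1g, Syk, Card9, Cd209e, Clec9a, Nr1h3, Marco, Siglec1) or for a contrast (Lyve1, Fcna in spleen) were chosen after their values were seen. Transcript identities were computed on GENCODE M21 models with Biopython 1.88; promoters are RefSeq windows.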

Additional observations from a re-analysis of the deposited data

How the results depend on the processing

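Each count of called members and each called fold change was recomputed in 25 alternative settings, 15 of which leave out 1 library. In nerve and fat against spleen and microglia the count of 7 ranged from 6 to 10, and the calls of Cd209a, Cd209d, Clec10a, Clec7a, Clec4e and Mgl2 were kept wherever an adjusted p was given (DESeq2 gave none for Mgl2). In spleen against microglia the count of 2 became 4 without the low-count filter and 1 on the uncorrected gene-body counts and on log2(RPKM + 0.1) or log2(RPKM + 1), with a leave-one-out range of 1 to 3; it was 1 without microglia 1 or any single spleen library. Mgl2 there (-5.56) reversed to 1.53 without microglia 1 and reached -7.05 without spleen 1. In fat against ganglia the count of 5 became 2 on the uncorrected counts (leave-one-out 4 to 5). Cd209f and Cd209g were kept in all 25, the second with the limit from the low-count filter given above. In fibers against subcutaneous fat the count of 3 became 0 with voom and 0 on the uncorrected counts (leave-one-out 2 to 5). In ganglia against fibers the count of 3 became 1 with voom and 0 on the uncorrected counts (leave-one-out 1 to 4). In subcutaneous against visceral fat voom called 1. For any difference among groups the count was 9 or 10. The cause of these changes was not tested. RLE scaling moved the median of all genes to 0.28 in fibers against subcutaneous fat and to -0.25 in ganglia against fibers, where the count became 2. Leaving out the 3 libraries with most DNA background together, chosen after seeing the data, gave 6, 3, 5, 3, 2, 0 and 10 in the order above. The pairwise tests against microglia were not refitted.

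With the replicate number as a block the counts were 7, 3, 5, 4, 2, 0 and 10. Nothing in the labels ties equal numbers together, and deviations of same-numbered libraries correlated above 0.1 in 17 of 33 pairs (median r 0.104, -0.37 to 0.65; 60 pairs with different numbers, median -0.0789), so the numbers were not taken as pairing. The 10 pairs of replicate 1 libraries outside fibers all correlated, at 0.20 to 0.65, and these 5 libraries each had the lowest DNA background of their group (32.9 to 102 olfactory receptor counts per M); the part of that background was not tested. Uncorrected counts include introns and DNA, and on them 2.33% of genes were called in the first comparison.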
